A study of Mus musculus with 2 samples.

Results

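MicroRNA (miRNA) loci were taken as the gene features whose symbol begins with Mir and a digit, or with Mirlet7, in both deposited tables. The rule matched 655 of 38926 listed symbols. Of these, 652 were short hairpin loci, and 3 were longer transcripts, Mir17hg, Mir22hg and Mir143hg. Of these, Mir17hg and Mir22hg held loci of the set and served as their hosts, while Mir143hg overlapped none. The tissue was the pleuroperitoneal fold (PPF), the paired embryonic fold that contributes connective tissue to the diaphragm. All RNA came from wild-type mouse embryos of mixed 129s/SvlmJ and C57/BL6J background at embryonic day 12.5, with 2 PPF pairs pooled in each library. The design held 1 group of 2 libraries, labelled as biological replicates, and the sources used here do not say whether their folds came from different litters. Libraries were made from polyadenylated RNA with a stranded kit, so the counts at these loci were reads of long RNA over hairpin positions and not of mature miRNA.

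A miRNA begins as a hairpin within a long primary transcript. In the nucleus, Drosha and Dgcr8 cut the hairpin out of that transcript, and Dicer1 trims it to a short duplex in the cytoplasm. One strand then guides an Argonaute protein to messenger RNAs that pair with its seed, the bases near the 5′ end. Many hairpins lie inside a longer gene, the host, either in an intron or in an exon, and some primary transcripts carry several hairpins.

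Total counts were 26370253 for replicate 1 and 23255957 for replicate 2. Wt1, a transcription factor of the fold mesenchyme, stood at 90.7 ± 1.33 TPM (read count divided by gene length and scaled so that every library has one sum, given as mean ± SD, n = 2 libraries here and below), and Gata4, another factor of that mesenchyme, at 176 ± 3.50 TPM. Myod1, which marks muscle precursors, stood at 179 ± 10.003 TPM. Nkx2-1, a factor of lung epithelium, had 0 counts in both libraries, and lung had been removed at dissection. The tissue therefore held RNA of more than one cell type, and fewer cells of a type and less RNA per cell cannot be told apart in such bulk samples.

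Mature sequences were looked up by locus name in RefSeq miRNA records on GRCm38.p6. An entry was found for 516 of the 652 loci, and for 88 of the 92 loci with at least 10 counts. The lookup did not cover every chromosome, so these tallies and those of seeds below leave out loci that could not be found. The sequences shown belong to loci that carry the results below: the hairpins in the exons of H19, Scd2, Dnm3os, Dgcr8 and Mirg, the hairpins opposite Rtl1, those in introns of Igf2 and Mest, and the muscle miRNAs. Each is written 5′ to 3′ with the seed, bases 2 to 8, in capitals.
miR-675-5p: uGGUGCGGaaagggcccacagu
miR-675-3p: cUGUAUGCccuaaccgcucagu
miR-5114: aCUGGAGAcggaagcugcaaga
miR-214-3p: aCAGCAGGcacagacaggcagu
miR-199a-5p: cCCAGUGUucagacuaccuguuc
miR-199a-3p: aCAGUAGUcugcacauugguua
miR-1306-3p: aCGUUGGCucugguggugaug
miR-410-3p: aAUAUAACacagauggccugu
miR-433-3p: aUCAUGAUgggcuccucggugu
miR-127-3p: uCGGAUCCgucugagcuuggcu
miR-483-3p: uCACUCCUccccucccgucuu
miR-335-5p: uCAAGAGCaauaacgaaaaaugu
miR-133b-3p: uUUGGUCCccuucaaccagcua
miR-206-3p: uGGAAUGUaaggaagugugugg

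Some loci with a count shared a seed although they lay in different places. The seed of miR-214-3p, whose locus lies in Dnm3os, was also that of miR-761, whose locus lies in Nrd1. The other groups shown are miR-322-5p with miR-16-5p, miR-351-5p with miR-125a-5p, and miR-25-3p with miR-92a-3p.
miR-761: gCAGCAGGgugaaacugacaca
miR-322-5p: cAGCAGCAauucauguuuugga
miR-16-5p: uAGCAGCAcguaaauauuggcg
miR-351-5p: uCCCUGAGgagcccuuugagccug
miR-125a-5p: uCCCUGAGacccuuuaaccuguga
miR-25-3p: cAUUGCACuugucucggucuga
miR-92a-3p: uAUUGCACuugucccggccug
Among the mature sequences found, the seed CAGCAGG was held by 2 loci, and both had counts. Of the 7 loci found with the seed AUUGCAC, 4 had a count, namely Mir25, Mir32, Mir367 and Mir92-1. The let-7 seed, GAGGUAG, was found for 10 loci, and 3 of these had a count, namely Mirlet7c-1, Mirlet7c-2 and Mirlet7d. For Mirlet7a-2, which had 0 and 2 counts, the 5p sequence was not among those found, so it is not in this tally.

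Most miRNA loci held no read. A count was found at 216 loci in replicate 1 and at 228 in replicate 2, with 173 in both libraries, and 381 loci (58.4%) had none in either. At least 10 counts over both libraries were found at 92 loci, or 14.1%. Against this stood 49.9% of all listed features and 8.11% of the 5226 other listed features under 200 bases. A count of 0 over both libraries allows up to 3 counts, so a locus without reads was not detectable at this depth rather than absent.

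The loci together held 19817 counts in replicate 1 and 17362 in replicate 2, which was 0.0751% and 0.0747% of all counts. Because TPM divides by length, the same reads made up 2.81% and 2.87% of the TPM. Mir675 alone held 70.6% of the 37179 counts at these loci, and the 5 loci with the most counts held 82.8%. Without Mir675, 10927 counts remained.

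Loci with many reads lay mostly over exons of longer genes. GENCODE M21 on GRCm38 placed 476 of 652 loci within 324 host genes, and 176 lay in no listed gene of 200 bases or more. Loci that overlapped an exon of a same-strand host had at least 10 counts at 57 of 136 and held 95.8% of all counts at miRNA loci. Loci in a same-strand intron reached 10 counts at 19 of 282. Loci over an exon of a host on the opposite strand reached it at 8 of 19, those in an opposite-strand intron at 0 of 39, and those without a host at 8 of 176. Of the 36 loci with at least 50 counts, 31 overlapped a same-strand exon, 2 lay in a same-strand intron, 3 overlapped an opposite-strand exon, and 0 had no host. An overlap of 1 base was enough for an exon class, and some of the 31 overlapped an exon by only a few bases, as given below.

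Each locus was then set against its host by the ratio of the 2 counts per base within the same library, so that library size cancels. A ratio of 1 means that the hairpin locus had as many counts per base as its host. How reads that overlap only part of a locus were counted is not given, so 1 need not mean equal coverage. For the 79 loci that overlapped a same-strand exon of a host with at least 1000 counts, the median ratio was 0.404 (0.410 in replicate 1 and 0.331 in replicate 2). Other short features in same-strand exons had a median of 0.268 (n = 210). A ratio of 1 or more was found at 24 of the 79 loci, or 30.4%, and at 18.1% of those other features. The exact 95% interval of the ratio, which covers counting error only, lay wholly above 1 at 21 loci and wholly below 1 at 49.

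The 129 loci in same-strand introns had a median ratio of 0, with 66 of them at 0 counts. None reached a ratio of 1, against 0.336% of the 596 other short features in same-strand introns, whose median was 0.0127. Over opposite-strand exons the median was 0.817 for 9 loci, 4 of which reached 1, against 32.0% of 50 other short features there, with a median of 0.166. Of those 9 loci, 6 lay opposite the same gene, Rtl1, among them Mir127, whose ratio was the median. In opposite-strand introns the medians were 0.0105 for 25 loci and 0 for 407 other features, of which 0.491% reached 1. In each library on its own the median of those 25 loci was 0. The share of loci with at least the host's count per base was thus higher over exons than in introns on either strand. For loci over an opposite-strand exon, reads of the host and of the hairpin's own strand cannot be told apart in these counts.

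**Figure D1:**
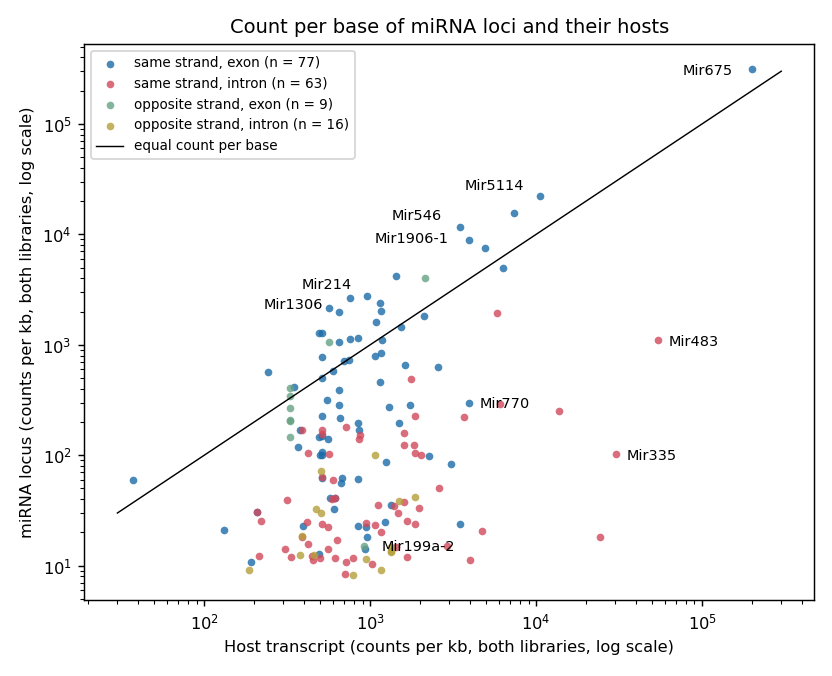
Summed counts per kilobase of miRNA loci (vertical, log scale) against those of their hosts (horizontal, log scale) for loci with a count and a host of at least 1000 counts, coloured by position in the host, with a line at equal count per base. Intronic loci such as Mir483 and Mir335 lie far below the line, while Mir675, Mir546 and Mir5114 lie above it.

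The exonic group was itself mixed. In M21 some exons belong only to transcripts outside the annotation's basic set, which holds the representative transcripts of each gene. Among loci in same-strand exons of hosts with at least 1000 counts, those held whole by a basic exon had a median ratio of 0.851 (n = 34), and 15 of them reached 1, against 29.4% of 51 other short features placed in the same way, whose median was 0.304. Loci with only a part in a basic exon had a median of 0.501 (n = 28). Loci in exons outside the basic set had a median of 0.0909 (n = 17). Within the 34 loci held whole, the median was 1.03 for 14 loci in 3′ untranslated regions (UTRs), 0.200 for 4 in 5′ UTRs, 1.55 for 6 in coding sequence and 1.27 for 10 in exons of noncoding hosts.

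Even the loci whole within a basic exon ran from 0.0191 for Mir199a-2 to 3.86 for Mir1896. Across those 34 loci the count per base of locus and host had a Spearman correlation of 0.529. It was 0.406 over all 79 same-strand exonic loci and 0.232 over the 129 intronic ones. These are descriptions across loci that share both libraries, and some share a host.

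**Figure D2:**
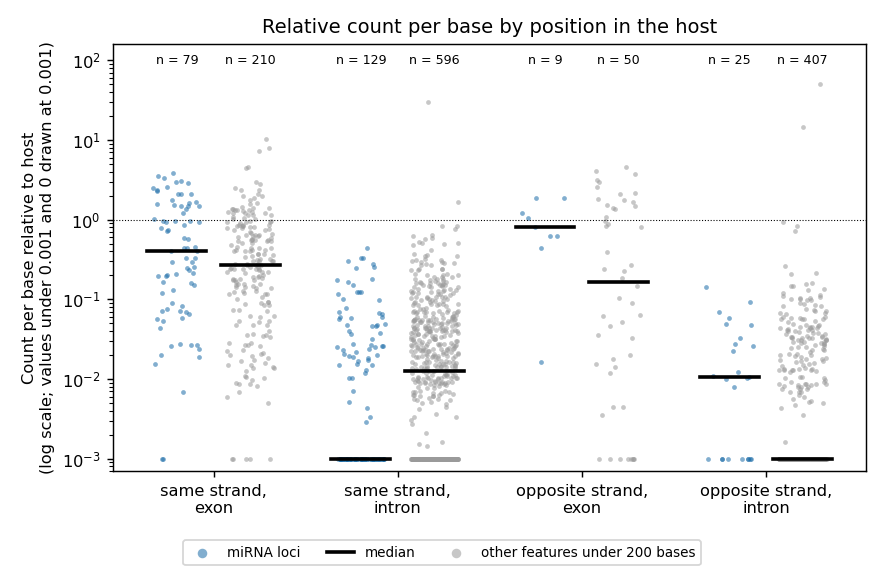
Count per base relative to the host (log scale) for miRNA loci and for other features under 200 bases, by position in hosts with at least 1000 counts, with bars at the medians and the dotted line at 1. Loci in same-strand exons centre on 0.404 with some above 1, and loci in same-strand introns all lie below 1.

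Mir675 had the most reads of any miRNA locus. It lies within an exon of H19, a maternally expressed imprinted noncoding RNA that is the known precursor of miR-675, at chr7:142577064-142577147 on the minus strand. Its count was 14039 in replicate 1 and 12213 in replicate 2, and that of H19 was 255345 and 216500. Per length this came to 19850 ± 215 TPM for Mir675 and 12622 ± 92.8 TPM for H19. The ratio of counts per base was 1.55 and 1.59, so the hairpin locus had more counts per base than H19 in both libraries.

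Hairpins in exons of protein-coding genes came next. Mir546 lies in the 3′ UTR of Ctdsp2, a small phosphatase that acts on RNA polymerase II, at chr10:126998440-126998560, and had 727 and 683 counts with ratios of 3.26 and 3.46. Mir5114 lies in coding sequence of Scd2, a fatty acid desaturase, at chr19:44303171-44303231, and had 731 and 637 counts with ratios of 2.18 and 2.07. Mir3064 lies at chr11:106782693-106782759 within Ddx5, an RNA helicase that is itself a cofactor of Drosha, and had 585 and 456 counts with ratios of 2.19 and 2.02. An exon of an M21 transcript held all of Mir3064, but basic exons overlapped only 1.49% of it. All of these ratios were above 1 in each library.

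Mir686, in coding sequence of the proteasome subunit gene Psmb5 at chr14:54616677-54616785, had 275 and 187 counts with ratios of 2.90 and 3.01. Mir3082, which lies at the edge of a basic exon of the ubiquitin ligase gene Stub1, had 267 and 214 counts and a ratio of 1.52 in both libraries. Mir678, in the 3′ UTR of the arginine methyltransferase gene Prmt2, had 140 and 83 counts with ratios of 3.95 and 2.97. The miRNA machinery gene Dgcr8 carries a hairpin in its own coding sequence, Mir1306, at chr16:18284238-18284317. Mir1306 had 79 counts in each library against 2395 and 2341 for Dgcr8, a ratio of 3.04 (95% interval 2.58 to 3.56). Each of these loci, too, had more counts per base than its host.

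The highest ratio among the 76 loci with at least 10 counts and a host of at least 1000 belonged to Mir1896, with 98 and 78 counts in an exon of the noncoding 4930470G03Rik, which had 691 and 687 (ratio 3.86, interval 3.28 to 4.52). Of these 76 loci, 27 had a ratio of 1 or more and 9 were below 0.1. Ratios against hosts with few reads were left out of these summaries. Mir1895, for example, had 19 and 22 counts against 44 and 45 for Gm26691, a ratio of 48.9.

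Among the other loci with at least 50 counts, Mir719 in Nupl1, a nuclear pore gene, had 115 and 108 counts with a ratio of 1.75, and Mir3063 in the 3′ UTR of the RNA-binding protein gene Igf2bp1 had 112 and 107 with a ratio of 2.07. Mir1902 in the 3′ UTR of the kinase gene Hipk3 had 66 and 63 counts with a ratio of 1.48. Mir1905 lies opposite coding sequence of Mex3a, and had 160 and 172 counts with ratios of 1.73 and 2.04. Mir704, which overlaps an exon of Pdia4 by 14 bases, had 210 and 172 counts with a ratio of 0.786. The overlap with an exon was likewise short for Mir702 in Plod3 (9 bases), Mir5134 in Ccnf (8 bases), Mir343 in Ercc2 (11 bases) and Mir3076 in Tkt (1 base). Those 4 had ratios of 0.939, 0.943, 1.01 and 0.863 in the same order.

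The remaining same-strand exonic loci with 50 or more counts, outside the Dlk1 to Dio3 region, had between 50 and 105 counts over both libraries. They were Mir3057 in Apba3, Mir5113 in Tnrc6b, Mir1982 in Oaz1, Mir671 in Chpf2, Mir3572 in Cnot3, Mir5116 in Mmgt1, Mir3062 in Pfas, Mir1893 in Epc1, Mir5117 in Gas5 and Mir3113 in Huwe1. Their ratios ran from 0.244 for Mir5117 to 2.59 for Mir5113, whose ratio was 3.55 in replicate 1 (69 counts) and 1.71 in replicate 2 (36 counts). Mir762, opposite coding sequence of Bcl7c, had 48 and 32 counts with a ratio of 1.85.

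**Figure D3:**
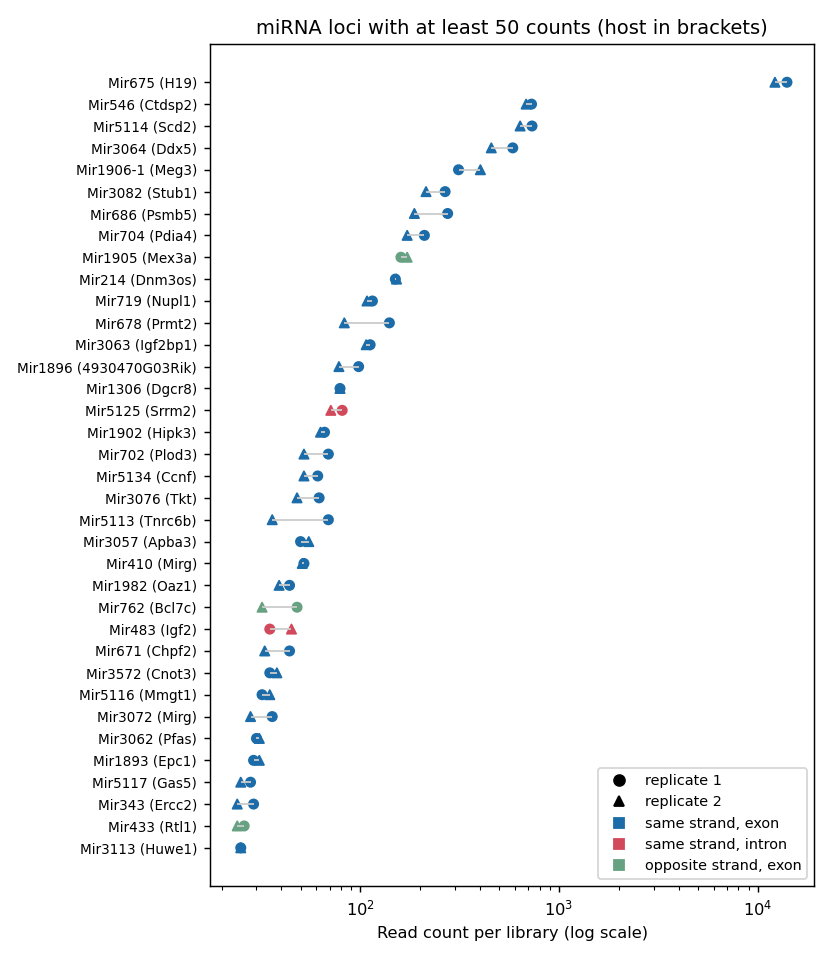
Read counts (log scale) of the miRNA loci with at least 50 summed counts in replicate 1 and replicate 2. Mir675, at 14039 and 12213, stands above the others, the next being Mir546 at 727 and 683.

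Hairpins in the same host could differ by more than counting error. Dnm3os, a noncoding RNA transcribed opposite to Dnm3 in embryonic mesenchyme, carries Mir199a-2 and Mir214 in its annotated exons, 5445 bases apart. Dnm3os had 3459 and 4101 counts. Mir214, at chr1:162223368-162223477, had 150 and 152 counts with ratios of 3.13 and 2.67, whereas Mir199a-2, at chr1:162217814-162217923, had 1 in each library with a ratio of 0.0191. Per base, Mir214 had 151 times the count of Mir199a-2 (95% interval 41.4 to 1253). The miR-199a sequences printed above are also those of Mir199a-1, which lies opposite Dnm2 and had 3 and 4 counts.

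Meg3, a maternally expressed noncoding RNA, showed a similar pair. Mir1906-1, at chr12:109544541-109544620, had 312 and 402 counts with ratios of 1.93 and 2.63. Mir770, at chr12:109563692-109563785 and 19072 bases further on, had 20 and 8 counts with ratios of 0.105 and 0.0446. Mir1906-1 had 18.3 times the count per base of Mir770 in replicate 1 and 59.04 times in replicate 2. The value over both was 29.96, and its 95% interval for counting error, 20.6 to 45.4, included neither library's own value. In Ctdsp2, Mir26a-2 overlaps an exon by 1 base and had 1 count in each library, a ratio of 0.00685, beside 3.35 for Mir546.

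The miR-17 cluster and its related clusters, known for promoting proliferation, gave few reads, also where the hosts Mir17hg and Mcm7 were expressed. Mir17hg, at chr14:115042879-115046727, is the primary transcript of the miR-17 to miR-92a cluster. It had 549 and 386 counts, or 16.7 ± 2.32 TPM. Mir17, Mir18, Mir19a, Mir20a and Mir19b-1 had 0 counts in both libraries, which allows a ratio of up to 0.106 to 0.138, and Mir92-1 had 3 in each, a ratio of 0.284. In Mcm7, a subunit of the replicative helicase with 4220 and 3453 counts, Mir25 had 17 and 7 counts with ratios of 0.212 and 0.107, and Mir93 and Mir106b had 0. Of 15 listed members of the related clusters, 2 had any count and 1 had at least 10. The 15 also hold Mir106a, whose host Kis2 had 0 counts in both libraries. Mir18b, Mir20b, Mir19b-2, Mir92-2 and Mir363, also among the 15, had no host.

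Mir22hg had 186 and 172 counts, or 11.8 ± 0.639 TPM, and Mir22 within it had 1 and 4. Mir143hg, a transcript named for a smooth muscle miRNA, had 10 and 7 counts, or 0.465 ± 0.0662 TPM, and Mir143, which lay outside its annotated span, had 0.

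Intronic loci had low counts even in hosts with high counts. Igf2, a paternally expressed growth factor, had 166358 and 145307 counts, or 3459 ± 47.3 TPM, and Mir483 in its intron, at chr7:142654924-142654996, had 35 and 45. The ratio was 0.0201 (95% interval 0.0160 to 0.0250). Mest, another paternally expressed gene, had 63171 and 55986 counts, and Mir335 in its intron, at chr6:30741299-30741396, had 6 and 4, a ratio of 0.00337 (interval 0.00162 to 0.00620). That was the lowest ratio among the 76 loci, followed by Mir677 in Atp5b (10 and 8 counts, 0.0183), Mir483, Mir3091 in Rps21 (9 and 13, 0.0478) and Mir697 in Sf3a3 (9 and 2, 0.0497). For Mir697 the ratio was 0.0739 in replicate 1 and 0.0201 in replicate 2. The intronic locus with the most counts was Mir5125 in the splicing factor gene Srrm2, with 81 and 71 and a ratio of 0.332.

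Intronic loci were also described by their distance to an exon. Within 100 bases of the nearest host exon, 10 of 15 loci had a count (66.7%) and the median ratio was 0.0470. Beyond 100 and up to 1000 bases, 27 of 50 had a count (54%) with a median of 0.0138, and beyond 1000 bases 26 of 64 had one (40.6%) with a median of 0. These distance classes were chosen after the values had been seen, and no test was made of the trend.

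Some hosts carried several hairpins of which most or all had almost no reads. The 70 loci within Sfmbt2, an imprinted Polycomb gene, together had 0 and 1 counts, with Sfmbt2 itself at 175 and 156, or 2.31 ± 0.0647 TPM. With so few host counts, 0 counts at a locus allow a ratio of up to 0.651 to 1.13. Many of the 70 are numbered members of one name, such as Mir467a-1 to Mir467a-10. Whether reads could be placed uniquely among them was not tested. The 5 loci in the chloride transporter gene Clcn5 had 0 counts beside 8594 and 8822 for the host. Mir98 and Mirlet7f-2, in introns of the ubiquitin ligase gene Huwe1, had 0 counts beside 18863 and 19386 for the host. Mir3113, in an exon of Huwe1, had 25 in each library.

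The imprinted Dlk1 to Dio3 region on chromosome 12 held 50 of the loci, and 43 of them had a count. It is a region in which Dlk1, Rtl1 and Dio3 are expressed from the paternal copy, and Meg3, Rian and Mirg from the maternal one. At least 10 counts were found at 22 of the 50, and the loci summed to 638 and 683 counts. Over all 652 loci, 271 had a count and 14.1% had at least 10, and 49.9% of all listed features had at least 10. The genes stood at 653 ± 5.58 TPM for Dlk1, 250 ± 17.5 for Meg3, 103 ± 21.7 for Rian, 32.6 ± 0.919 for Mirg, 20.9 ± 2.14 for Rtl1 and 1.71 ± 0.212 for Dio3.

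Counts within the region differed by host. The 2 loci in Meg3 held 742 counts over both libraries. Mirg, a noncoding host of miRNAs, carried 12 loci with 290 counts, all 12 with a count and 8 with at least 10. Mir410, whose seed is shown above, was the highest in Mirg, with 52 and 51 counts and a ratio of 2.47. Mir3072 had 36 and 28 counts, Mir377 had 18 and 16, and Mir154, the lowest, had 2 and 0. The 3 loci in introns of Rian held 34 counts, with 6 and 13 for Mir1188, 5 and 7 for Mir341, and 1 and 2 for Mir370.

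The 6 loci opposite Rtl1, a retrotransposon-derived gene that these hairpins are known to target, all had at least 10 counts and held 154 in total. Mir433 had 26 and 24, Mir431 had 18 and 13, Mir127 had 15 and 11, Mir434 had 10 and 9, Mir136 had 7 and 10, and Mir432 had 7 and 4. The ratio of Mir433 to Rtl1 was 1.23 (95% interval 0.909 to 1.63), an interval that includes 1. Rtl1 itself had 1048 and 1038 counts, and its reads cannot be told apart from those of the hairpins' own strand in these counts. Of the 26 loci of the region without a host, 20 had a count and 4 had at least 10, namely Mir3070b with 8 and 11, Mir493 with 6 and 7, Mir1193 with 8 and 4, and Mir679 with 5 and 6.

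**Figure D4:**
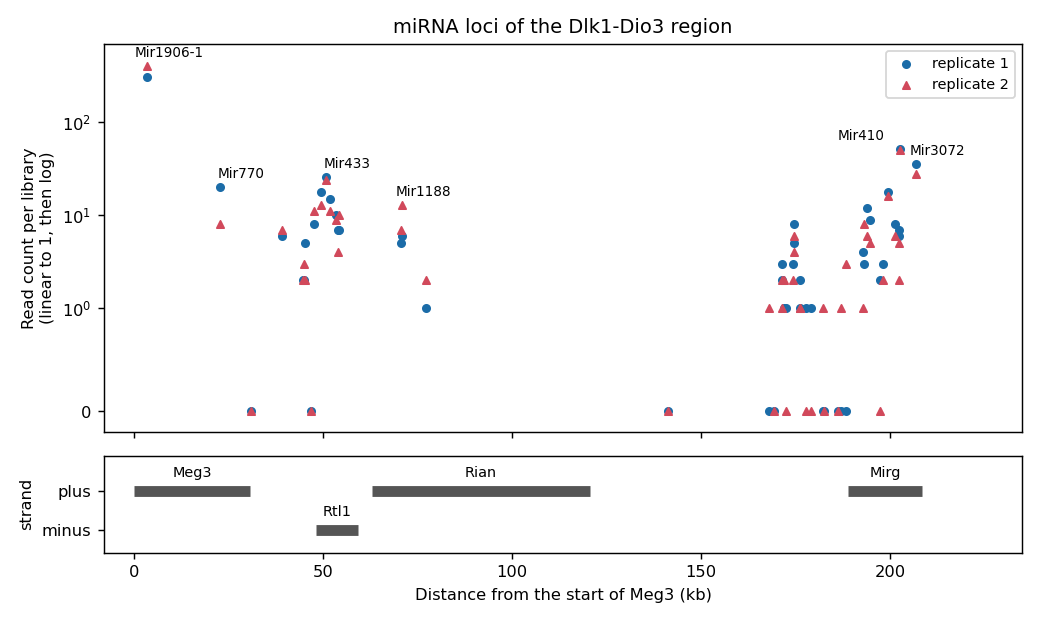
Read counts of the miRNA loci of the Dlk1 to Dio3 region in replicate 1 and replicate 2 (vertical, linear to 1 and then log) against distance from the start of Meg3 in kilobases, with the genes drawn below by strand. Mir1906-1 in Meg3 stands highest at 312 and 402 counts, and a group of loci with counts lies over Mirg.

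Outside that region, 4 loci without a host had at least 10 counts. Mir133b, a muscle miRNA on chromosome 1 at 20682769 to 20682887, had 9 and 13 counts. The nearest listed gene matched to the annotation, Il17a, lay 48018 bases away and had 0 counts. Mir206, its neighbour at 20679010 to 20679082, had 1 and 4 counts. On the X chromosome Mir351 had 18 and 29 counts and Mir322 had 6 and 5, with C430049B03Rik, at 1118 and 833 counts, lying 1693 and 697 bases from them on the same strand. The last was Mir1949, with 17 and 10.

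Groups of miRNAs known from particular tissues are given by the counts of the members found among the listed symbols. Not every list was found whole, for example 10 of 12 muscle, 19 of 23 mesenchymal, 15 of 19 neuronal and 6 of 9 blood loci. Over all 652 loci, 271 had a count and 92, or 14.1%, had at least 10. Of 10 muscle loci, 8 had a count and 1 had at least 10, which was Mir133b. The group summed to 20 and 24, with Mir208b and Mir499 at 0. Of 19 mesenchymal loci, 13 had a count and 1 had at least 10, which was Mir214, and among the others Mir140 had 0 and 1, Mir21 had 0 and 3, and Mir29a had 0. All 6 loci of the Hox clusters had 0 counts, among them Mir10a, which has no host. Hoxc5, the host of Mir196a-2 and Mir615, stood at 57.0 ± 4.71 TPM, and Hoxd3, the host of Mir10b, at 6.67 ± 0.396 TPM. Mir196b lies in Hoxa9, at 3.89 ± 1.18 TPM, where 0 counts allow a ratio of up to 0.566. Mir218-1 and Mir218-2, in introns of the guidance genes Slit2 and Slit3, also had 0, beside 5361 and 4339 counts for Slit2 and 1035 and 1326 for Slit3.

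Loci known from other cell types had between 0 and 24 counts over both libraries. None of 8 epithelial loci had a count, from Mir200a to Mir375. Of 15 neuronal loci, 2 had a count. One was Mir7-1, at 12 and 12 in an intron of the widely expressed RNA-binding protein gene Hnrnpk with a ratio of 0.0603, and the other was Mir212, at 1 and 0. Of 6 blood loci 5 had a count, summing to 4 and 5, with Mir451 highest at 3 and 1 and Mir150 at 0. The endothelial Mir126 had 2 and 1, and Mir221 and Mir222 had 0. The host of Mir126, the vessel gene Egfl7, had 1067 and 984 counts, or 36.5 ± 1.898 TPM. Of 4 liver loci only Mir194-1 had a count, 2 and 0, and Mir122a had 0. Of 12 loci known from pluripotent cells 3 had 1 count each, and Mir290 had 0. Of 10 let-7 loci 4 had a count, the highest being Mirlet7d at 6 and 2, and Mirlet7a-1, in the same host, had 0. Of 5 single imprinted loci, Mir675, Mir483 and Mir335 had counts, and Mir296 and Mir298 had 0.

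Genes of the miRNA pathway were expressed in the same libraries. Of 35 genes listed for the pathway and for let-7 control, 33 were found, with a median of 58.1 TPM. At 1 TPM or more in both libraries stood 31 of them, beside 17273 of all 38926 listed features. In the nucleus, the helicases Ddx17 and Ddx5 stood at 561 ± 24.99 and 467 ± 5.75 TPM, the splicing factor Sf3b1 at 272 ± 14.4, and Srrt, which links capped RNA to processing, at 249 ± 0.0612. The 2 core subunits of the nuclear cutting complex were the lowest of that group, at 89.5 ± 1.49 TPM for Drosha and 41.5 ± 3.86 for Dgcr8. Dicer1 stood at 71.6 ± 4.56 TPM, its partners Prkra and Tarbp2 at 63.9 ± 1.301 and 15.1 ± 1.17, and the editing enzymes Adar and Adarb1 at 30.7 ± 2.11 and 8.46 ± 1.03.

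Among effectors, the helicase Ddx6 stood at 195 ± 8.45 TPM, the deadenylase scaffold Cnot1 at 131 ± 15.7, Ago2, the slicing Argonaute, at 84.3 ± 13.8, and its partner Tnrc6a at 82.9 ± 7.84. Ago3 and Ago4 were lowest, at 8.16 ± 1.40 and 4.87 ± 0.218 TPM. Of the genes of let-7 control and miRNA decay, Hmga2, a known let-7 target, stood at 166 ± 7.03 TPM, the exonuclease Xrn2 at 127 ± 7.18, and the uridylyltransferases Zcchc11 and Zcchc6 at 73.7 ± 12.7 and 55.7 ± 4.81. Lin28a, which blocks let-7 maturation, was at 0.796 and 1.31 TPM in replicates 1 and 2, and Trim71 at 0.578 ± 0.121 TPM. Lin28b, the paralog of Lin28a, was at 4.26 ± 0.665 TPM. Drosha, Dgcr8, Dicer1 and Ago2 were thus all far above 1 TPM, while Lin28a and Trim71 were near 1 or below.

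**Figure D5:**
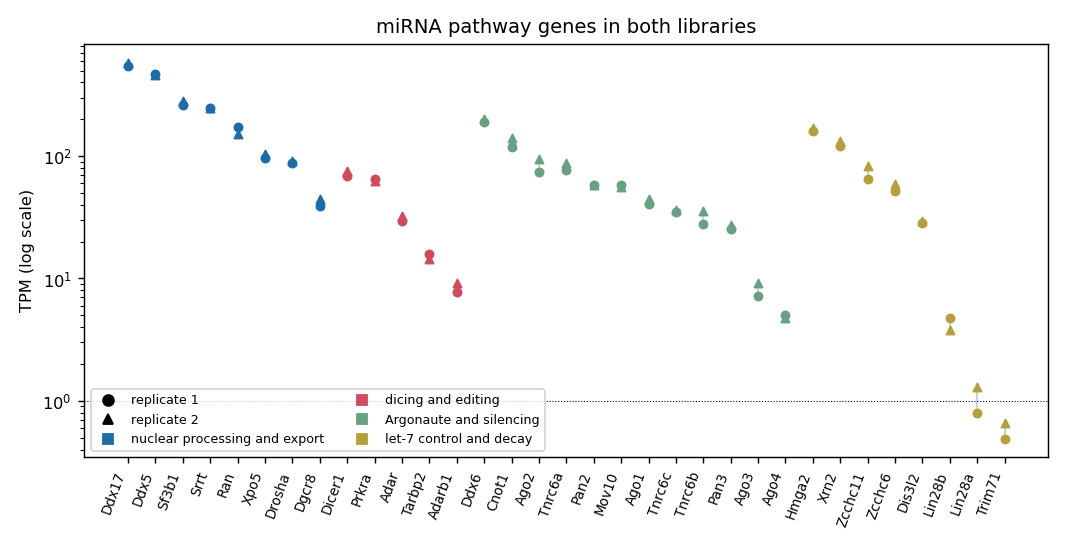
TPM (log scale) of listed miRNA pathway genes in both libraries, by role, with a dotted line at 1 TPM. Ddx17 and Ddx5 lie highest, and Lin28a and Trim71 lie near or below the line.

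The 2 libraries were compared at each locus by a two-sided exact binomial test against TMM-scaled library sizes, adjusted by Benjamini-Hochberg over 19433 features with at least 10 counts. With 1 library on each side the test compares those libraries and no condition, and reads that carry no molecular identifier cannot be taken as independent molecules. None of the 92 loci was called at an adjusted p under 0.05 and at least 2-fold, against 1.26% of all features and 1.74% of those under 200 bases. By the exact test 3 loci (3.26%) had an adjusted p under 0.05, against 17.5% of all features, and 4 had an unadjusted p under 0.05. These shares are not set at like counts, because the test finds smaller differences where counts are higher. At least 100 counts were held by 23 of the 92 loci and by 14093 of the 19433 features. With the same thresholds edgeR's exact test called 0 loci and 0.535% of all features. The median log2 ratio of replicate 2 to replicate 1 was 0.03 for the loci and -0.01 for all features, and 49 loci were higher and 43 lower in replicate 2.

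The 3 loci that passed the adjusted p alone were Mir1906-1, Mir686 and Mir678. Mir1906-1 was higher in replicate 2 by a log2 ratio of 0.55 (95% interval 0.33 to 0.77, adjusted p = 8.83e-06 by the exact binomial test), beside 0.10 for Meg3. Mir686 had a log2 ratio of -0.37 (adjusted p = 0.0412 by the same exact test), beside -0.42 for Psmb5, and Mir678 had -0.57 (adjusted p = 0.0309, exact test), beside -0.16 for Prmt2. The log2 ratio ran from -1.74 for Mir697 (9 and 2 counts) to 1.54 for Mir3060 (4 and 11 counts). Of 84 loci with a tested host, 79 had an interval that included the log2 ratio of the host, and 45 had the same sign as the host. Of the host transcripts, Mir17hg was lower in replicate 2, with a log2 ratio of -0.32 (95% interval -0.52 to -0.13, adjusted p = 0.00684, exact binomial test).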

How the data were processed

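Alignment and counting tools, per the submitters' processing notes, were STAR 2.4.0a, SAMtools 1.3 and featureCounts. The build they name is mm9, but deposited positions matched GRCm38 (586 of 651 loci identical to GENCODE M21). The strand setting, and how reads that overlap several features or only part of one were counted, are not given in the sources used here. The count per base of a feature as short as a hairpin depends on those settings. The authors deposited a raw count and a TPM value per symbol, and that TPM equalled count over length scaled to a fixed sum.

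Hosts were listed genes of 200 bases or more, taken in the order same-strand exon, same-strand intron, opposite-strand exon, opposite-strand intron. The 3 long transcripts that the symbol rule also matches were allowed as hosts, which departs from the planned definition, and 2 of them held loci. Mir1897 was kept as a locus although longer than 200 bases. The lookup of mature sequences left out the records of a whole chromosome, on which Mir1893 and Mir1949 lie. Intervals are exact at 95% and cover counting error only, and p-values measure only these samples, which may differ for technical reasons. TMM came from edgeR 4.0.16 and size factors from DESeq2 1.42.0. The test was checked on simulated data that held counting error only, so the check does not cover other variation between libraries. Loci named had at least 50 counts, were the highest and lowest of a listed group or of the ratios (5 each), or were host transcripts. Pathway genes named were the 4 highest and 2 lowest per role. Others named with their hosts, neighbours or seeds were chosen after their values were seen. Members and lists were chosen with earlier results of these data known.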

Additional observations from a re-analysis of the deposited data

How the results depend on the processing

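Of 33 alternatives, 23 left the value within its limits and 10 moved it. The 92 loci with at least 10 counts became 58 at 20 counts and 173 at 1 count in each library, and 91 to 102 with either library left out and at least 5 counts in the other. The median same-strand exonic ratio of 0.404 became 0.294 with hosts of at least 100 counts, 0.490 with hosts of at least 5000, 0.331 with the overlapping gene of most counts, and 0.331 to 0.410 without either library. It became 2.00 when the host count was divided by genomic span in place of exon length, a choice that by construction lowers the host's count per base. Loci held whole by a basic exon gave 0.851, an alternative chosen after seeing the data, as were the file-listed spans (330 loci with a host in place of 476) and leaving out Mir675 (10927 counts in place of 37179). The intronic median of 0 became 0.00388 with hosts of at least 5000 counts and was 0 in the other settings tried. No locus was called different between the libraries under any scaling, filter or test tried. Pathway genes at 1 TPM numbered 31 to 32 without either library, against 31. No paired analysis was possible because the series holds 1 group. Depth limits the loci without reads, for which 0 counts allow up to 3.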
